A study of Homo sapiens with 74 samples.

Results

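The genes described here encode the linker of nucleoskeleton and cytoskeleton (LINC) complex and the torsin system of the nuclear envelope: SUN1, SUN2, SYNE1, SYNE2, SYNE3, TOR1A, TOR1AIP1 and NEMP1. They were taken by name, with no cut on a measured value. Earlier results of these data were known when they were chosen. All 8 symbols were found among the 39037 genes of the RNA table in each of its 8 libraries, and all 8 passed the low-count filter that left 17740 genes. Their spans in the RefSeq annotation of GRCh38.p14 fall in 20 of the 28163 bins of 100 kb in the table of lamina contacts.

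SUN proteins cross the inner nuclear membrane and hold nesprins, the products of the SYNE genes, which cross the outer membrane and reach actin, microtubules or intermediate filaments. The SUN-nesprin pair carries force between the cytoskeleton and the lamina, and it positions nuclei in muscle, neurons and migrating cells. Torsins are ATPases of the perinuclear space that work only with a membrane-bound activator. The torsin TOR1A is mutated in an early-onset dystonia, and its loss gives blebs of the nuclear envelope in neurons.

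All samples were HEK293T, an established human embryonic kidney line, and those that were transfected were transfected transiently, so that a culture holds cells with different amounts of each plasmid. Dam, a bacterial enzyme that adds a methyl group to adenine in GATC, marks the DNA it touches, and fused to lamin B1 (LMNB1) it marks DNA at the lamina. DamWT is the wild-type enzyme and DamV133A a variant of it, and m6A-Tracer is a protein that binds the methylated sites. The RNA libraries came from cells with DamV133A, with DamV133A-LMNB1, with m6A-Tracer or with no transfection, 2 libraries each. Bulk DamID had 2 libraries each of DamV133A and DamV133A-LMNB1, and a separate comparison of enzyme variants had 2 each of DamWT, DamWT-LMNB1, DamV133A and DamV133A-LMNB1. Single-cell DamID had 15 cells of a first batch with DamV133A-LMNB1 + m6A-Tracer, 3 cells of that batch with DamV133A + m6A-Tracer, and 36 cells of a second batch with DamV133A-tdTomato-LMNB1 + m6A-Tracer-NES. The labels give 1 mM Shield-1 for 20 hours for every sample, also for those with no transfection. Whether the 2 libraries of a group stem from different cultures is not stated, so a p-value here measures only how these libraries vary, which may be technical.

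The RNA libraries held 39690886 to 51455298 estimated counts. RNA of LMNB1, the fusion partner, was 2547 and 2056 CPM (counts scaled to the same total in each library) in the DamV133A-LMNB1 libraries, 250 to 257 in the 4 libraries with DamV133A or m6A-Tracer, and 767 and 768 in the untreated libraries. The second DamV133A-LMNB1 library stood apart from the first: the median absolute log2 difference over all genes was 0.19 between these 2 libraries and 0.07 within each of the other pairs. Of 31 genes with very long mRNAs, listed after the data were seen, 31 were lowest in that library, against 27.9% of all tested genes. Its level over that of the first library had a median log2 ratio of -0.81 for them and 0.00 for all genes. All 5 HEK293T markers (NEFM, NEFL, INA, VIM and PAX2) were present, with a summed level of 1231.6 to 1274.4 CPM in untreated libraries, 859.3 to 873.1 with DamV133A, 908.5 to 913.0 with m6A-Tracer and 947.5 to 1006.5 with DamV133A-LMNB1. Of 9 markers of liver, blood and fibroblast cells, 8 stayed below 1 CPM in every library and COL1A1, a fibroblast collagen, was at 24.5 to 29.8 CPM. What part library quality and these markers have in the results was not tested.

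RNA of the giant nesprins SYNE1 and SYNE2 was lower in both DamV133A-LMNB1 libraries than in the other 6, and SYNE2 passed the test. The 31 genes with very long mRNAs, listed after the data were seen, were lower too. Their median log2 difference over DamV133A was -0.66, beside -0.02 for all genes. Of the 31, 14 were called lower and 0 higher, where 7.55% of all tested genes were lower and 12.7% higher. In 24 of the 31 the first fusion library was also below the 6 libraries without the fusion. The share of all genes with that order is not given. These values describe a list made after the data were seen, and they are not separate support. The cause of the lower level in these genes or in the nesprins was not tested. SYNE2 encodes nesprin-2, which joins SUN proteins to actin and to microtubule motors. SYNE2 RNA was 69.0 and 74.4 CPM in untreated libraries, 66.8 and 73.7 with m6A-Tracer, 69.9 and 74.0 with DamV133A, and 53.0 and 31.4 with DamV133A-LMNB1. Both libraries with the fusion were below all 6 others, and the second was by far the lower of the pair. SYNE2 fell by 0.77 on the log2 scale (SE 0.20) over DamV133A, with an adjusted p of 0.0356 in edgeR's quasi-likelihood test, and by 0.76 (SE 0.20) over untreated cells, with an adjusted p of 0.0348. Against m6A-Tracer the log2 difference was -0.73 (SE 0.20), which did not pass at an adjusted p of 0.0696. These contrasts share the same fusion libraries, and they are not separate evidence. With 1 fusion library left out, the fusion arm is a single library that is assumed to vary like the other groups, so that these p-values do not measure its own spread. Without the second fusion library the log2 difference of SYNE2 was -0.44 over DamV133A (edgeR adjusted p 0.000319) and -0.43 over untreated (0.000284). Without the first it was -1.18 over both. Leaving out any 1 of the 6 libraries without the fusion kept the size, between -0.72 and -0.81 over DamV133A, but the adjusted p then ran from 0.0716 to 0.184.

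SYNE1 encodes nesprin-1, the other giant nesprin, which anchors nuclei in skeletal muscle. SYNE1 RNA was 25.3 and 26.3 CPM in untreated libraries, 25.5 and 24.7 with m6A-Tracer, 24.7 and 25.9 with DamV133A, and 22.9 and 14.1 with DamV133A-LMNB1. The 6 libraries without the fusion lay within a narrow band, and both fusion libraries were below it. The log2 difference over DamV133A was -0.45 (SE 0.18) and did not pass (edgeR adjusted p 0.11). DESeq2 called it at an adjusted p of 0.0395, and over untreated cells at 0.0275, where edgeR gave 0.105. SYNE1 and SYNE2 followed each other over the 8 libraries at a Pearson r of 0.97 of log2 CPM, a value given as a description, to which the second fusion library contributes in both genes. In that library over the first, the log2 ratio was -0.68 for SYNE1 and -0.75 for SYNE2, inside the range of -1.18 to -0.51 of the 31 very long mRNAs.

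**Figure D1:**
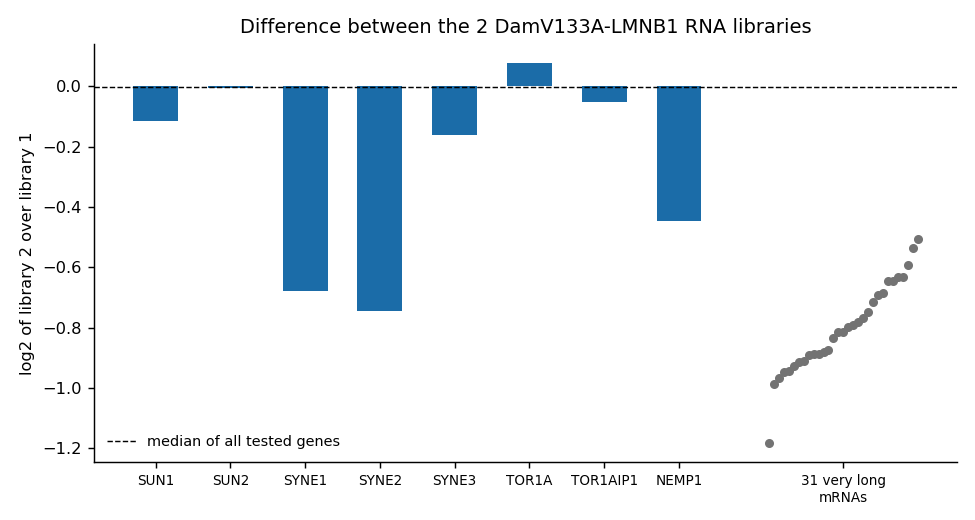
Log2 ratio of the second to the first DamV133A-LMNB1 RNA library for the 8 genes (bars) and for each of 31 genes with very long mRNAs (points), with the median of all tested genes as a dashed line. SYNE1, SYNE2 and NEMP1 sit at -0.68, -0.75 and -0.45, while the other 5 genes lie between -0.16 and 0.08.

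SYNE3 encodes nesprin-3, which binds the linker plectin and through it intermediate filaments. SYNE3 RNA was 8.31 CPM in each untreated library, 5.83 and 6.68 with m6A-Tracer, 5.71 and 6.63 with DamV133A, and 6.13 and 5.44 with DamV133A-LMNB1. Both untreated libraries were above all 6 transfected ones. SYNE3 fell by 0.52 on the log2 scale (SE 0.13) in DamV133A-LMNB1 over untreated cells, with an edgeR adjusted p of 0.0266, and by 0.43 (SE 0.13) in DamV133A over untreated cells, with an adjusted p of 0.0382. DESeq2 gave 0.0336 for the first and did not call the second, at 0.0764. With m6A-Tracer, which carries no enzyme, the difference was -0.41 (SE 0.13) at an adjusted p of 0.071. The 3 contrasts share the untreated libraries.

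The SUN genes moved in opposite directions against untreated cells. SUN1 pairs with nesprins and also tethers telomeres in meiosis. SUN1 RNA was 142 and 145 CPM in untreated libraries, 131.2 and 132.5 with m6A-Tracer, 124 and 125 with DamV133A, and 121 and 112 with DamV133A-LMNB1. The 4 groups did not overlap. SUN1 fell by 0.30 on the log2 scale (SE 0.06) in DamV133A-LMNB1 over untreated cells, with an edgeR adjusted p of 0.0103, and by 0.21 (SE 0.06) in DamV133A over untreated cells, with an adjusted p of 0.0282. SUN2, its broadly expressed relative, was at 99.7 and 97.9 CPM in untreated libraries, 116 and 112 with m6A-Tracer, 113 and 111 with DamV133A, and 105 in each library with DamV133A-LMNB1. All 6 transfected libraries were above both untreated ones. SUN2 rose by 0.18 (SE 0.05) in DamV133A and by 0.21 (SE 0.05) in m6A-Tracer over untreated cells, with edgeR adjusted p values of 0.0285 and 0.0335. Both differences are small, and DESeq2 gave adjusted p values of 0.0694 and 0.0626 for them. With the fusion over untreated cells the log2 difference of SUN2 was 0.09 (SE 0.05), at an edgeR adjusted p of 0.231.

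Of TOR1A, TOR1AIP1 and NEMP1, TOR1A was the one called in the main edgeR fit of all 8 libraries. The torsin paralogs TOR1B and TOR3A were also called, as given below. TOR1A encodes torsin-1A, the ATPase mutated in early-onset dystonia. TOR1A RNA was 44.2 and 46.5 CPM in untreated libraries, 52.6 and 50.1 with m6A-Tracer, 49.8 and 53.1 with DamV133A, and 56.8 and 60.0 with DamV133A-LMNB1. The untreated libraries were the lowest and the fusion libraries the highest, with no overlap. TOR1A rose by 0.37 on the log2 scale (SE 0.07) in DamV133A-LMNB1 over untreated cells, with an edgeR adjusted p of 0.00923. Over DamV133A the difference was 0.18 (SE 0.07) at an adjusted p of 0.078. TOR1AIP1 encodes LAP1, the activator of torsins at the inner nuclear membrane, which also binds lamins. TOR1AIP1 RNA stayed between 57.4 and 65.3 CPM over the 8 libraries. It was called in no contrast in the main edgeR fit of all 8 libraries, nor by DESeq2. A fit of DamV133A and untreated libraries alone called it, as given below. NEMP1, an inner nuclear membrane protein that stiffens the nuclear envelope, was at 109 and 112 CPM in untreated libraries, 132 and 135 with m6A-Tracer, 135 and 143 with DamV133A, and 126 and 92.7 with DamV133A-LMNB1. Its fusion libraries lay on both sides of the untreated ones. NEMP1 was called in no contrast in the main edgeR fit. Its log2 difference was -0.35 (SE 0.12, edgeR adjusted p 0.0775) for the fusion over DamV133A. For DamV133A over untreated cells it was 0.33 (SE 0.12, edgeR adjusted p 0.0803). DESeq2 called both, at adjusted p values of 0.0207 and 0.0219. Without the second fusion library the difference over DamV133A was -0.14.

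**Figure D2:**
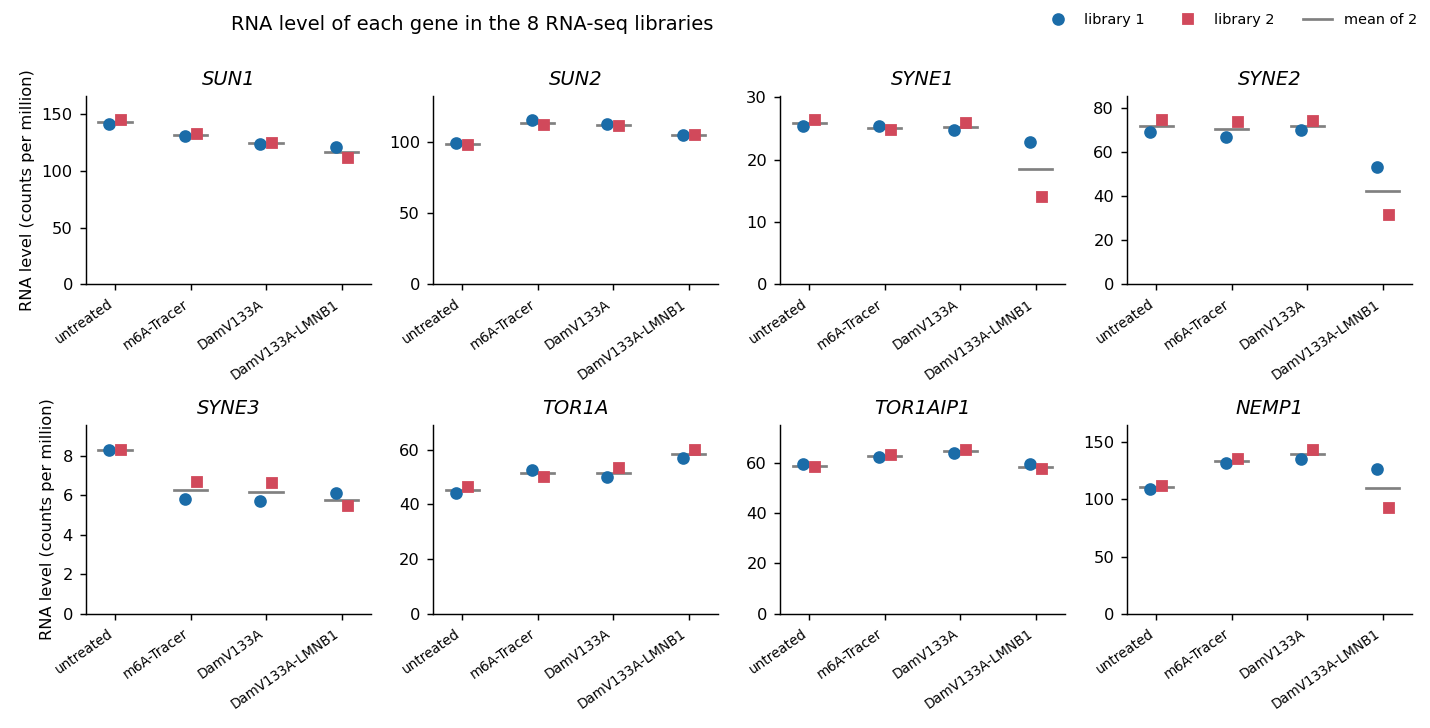
RNA level in CPM (vertical axes, from 0) of the 8 genes in untreated, m6A-Tracer, DamV133A and DamV133A-LMNB1 cells, with circles for library 1, squares for library 2 and grey lines for the mean of 2. SYNE1, which did not pass the edgeR test, and SYNE2, which did, are lowest in DamV133A-LMNB1 library 2 (14.1 and 31.4 CPM), while TOR1A is highest there (56.8 and 60.0 CPM).

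The calls are read against those of all tested genes in the same contrast, as a description and with no test of the 8 genes as a list. In DamV133A-LMNB1 over DamV133A, 0 of the 8 were called higher and 1 lower, where 12.7% of all tested genes were higher and 7.55% lower. In DamV133A-LMNB1 over untreated cells, 1 was higher and 3 were lower, where 11.4% of all were higher and 7.56% lower. In DamV133A over untreated cells, 1 was higher and 2 were lower, against 13.6% and 13.1% of all. In m6A-Tracer over untreated cells, 1 was higher and 0 were lower, against 7.62% and 4.67% of all. By edgeR, 0 of the 8 were called in DamV133A-LMNB1 or DamV133A over m6A-Tracer, where 0.231% and 0.124% of all genes were called in either direction. At an edgeR unadjusted p under 0.05, 5 and 0 of the 8 passed in those contrasts, where 5791 and 1588 of all 17740 genes passed. DESeq2 called 1 and 0 of the 8. The median log2 difference of the 8 genes was -0.12 in DamV133A-LMNB1 over DamV133A and -0.16 over untreated cells, beside -0.02 and 0.00 for all genes. The counts turned on single libraries. For the refits that follow, the share of all genes called is not given. Their counts are therefore not read as a result about the 8 genes. In DamV133A-LMNB1 over DamV133A, 6 genes were called without the first fusion library, 2 without the second and 0 without any 1 of the other 6 libraries. In DamV133A-LMNB1 over untreated cells, 7 were called without the first fusion library, 5 without the second, 3 without any DamV133A or m6A-Tracer library and 0 without either untreated library. In m6A-Tracer over untreated cells, 5 were called without either fusion library and 0 without any of the others. In DamV133A-LMNB1 over m6A-Tracer, 5 were called without the first fusion library and 2 without the second. A fit of DamV133A and untreated libraries alone called 6 of the 8: SUN1 (log2 difference -0.21) and SYNE3 (-0.43) lower, and SUN2 (0.18), TOR1A (0.18), TOR1AIP1 (0.13) and NEMP1 (0.33) higher. The same 6 were called in that contrast when either fusion library was left out, and 0 were called when any 1 of the other 6 libraries was left out.

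In bulk RNA, fewer cells that express a gene and less RNA per cell cannot be told apart. CPM values are not divided by transcript length, so levels are compared between libraries and not between genes. Over the 8 libraries, the protein-coding genes closest to each called member in log2 CPM were PANK3 and ATM for SYNE2 (both at a Pearson r of 1.00), CABYR and DMWD for SUN2 (1.00 and 0.99), PIK3CB and TIMELESS for SUN1 (both 0.99), ALX4 and TRIM45 for SYNE3 (both 0.99), and STYXL1 and DAGLB for TOR1A (both 0.98). These are the highest among 17740 genes over 8 libraries of 4 groups, and they are given as a description.

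Of 12 paralogs of the members, 10 could be tested, and SUN3 and SUN5 were too low. The shares of all tested genes called in each contrast, given above, also stand beside this list and those that follow. In DamV133A-LMNB1 over DamV133A, 1 rose and 1 fell: TOR3A, another torsin, rose by 0.32 on the log2 scale (edgeR adjusted p 0.0247) and TOR1AIP2, which encodes the torsin activator LULL1, fell by 0.28 (0.0236). TOR1AIP2 RNA was 72.09 and 75.01 CPM in untreated libraries, 93.2 and 94.4 with DamV133A, and 80.6 and 73.5 with the fusion. Over untreated cells, the fusion libraries had 2 higher and 0 lower, TOR3A (0.28, adjusted p 0.03) and TOR1B (0.30, 0.0368). In DamV133A over untreated cells 2 were higher, TOR1AIP2 (0.35, 0.00557) and TOR1B (0.34, 0.0171), and 1 was lower, NEMP2 (-0.49, 0.0477), by the same test. In m6A-Tracer over untreated cells edgeR and DESeq2 each called 0 of the 10, with 3 at an unadjusted p under 0.05 and a median log2 difference of 0.13. Over all 17740 tested genes, 5215 had an edgeR unadjusted p under 0.05, and the median was 0.01.

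Of 10 partners of SUN proteins and nesprins at the nuclear envelope, LMNB1 was called in every contrast but DamV133A over m6A-Tracer; its coding sequence is also on the fusion plasmid. In DamV133A-LMNB1 over DamV133A, 2 rose and 0 fell: LMNB1 by 3.19 on the log2 scale (edgeR adjusted p 1.1e-05) and BANF1, which bridges DNA and the envelope, by 0.53 (0.0202). Over untreated cells the fusion libraries had 3 higher, LMNB1 (1.58, 0.000151), LMNA (0.41, 0.0156) and TMEM201 (0.22, 0.0406), and 1 lower, LBR (-0.15, 0.0487). LMNA encodes the A-type lamins, to which SUN proteins bind, and TMEM201 encodes SAMP1, an inner nuclear membrane protein tied to LINC complexes. LMNA RNA was 77.7 and 73.2 CPM in untreated libraries and 91.6 and 109 with the fusion. In DamV133A and in m6A-Tracer over untreated cells, TMEM201 was higher (0.28 and 0.23, edgeR adjusted p 0.0123 and 0.0463) and LMNB1 lower (-1.61 and -1.60, adjusted p 6.9e-05 and 0.000191).

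Of 10 cytoskeletal partners of nesprins, 0 rose and 3 fell in DamV133A-LMNB1 over DamV133A, where 12.7% of all tested genes rose and 7.55% fell. The list median was -0.25 on the log2 scale, beside -0.02 for all genes. The called genes are given next. They were PLEC (plectin, the partner of nesprin-3; -0.56, edgeR adjusted p 0.0189), KIF5B (a kinesin heavy chain; -0.31, 0.0268) and DYNC1H1 (the dynein heavy chain; -0.68, 0.0429). DYNC1H1 RNA was 641 and 660 CPM with DamV133A, and 509 and 303 with the fusion, lowest in the second fusion library as for the giant nesprins. Over untreated cells 3 fell with the fusion, PLEC (-0.47, 0.0149), FLNA (filamin A, an actin crosslinker; -0.51, 0.0198) and DCTN1 (a dynactin subunit; -0.17, 0.0454). In DamV133A over untreated cells KIF5B was higher (0.24, 0.0393) and FHOD1, a formin that binds nesprin-2, lower (-0.29, 0.00858), and FHOD1 was also lower with m6A-Tracer (-0.22, 0.0449), all by edgeR.

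The genes differ in what the assay can read at them. DamID sees methylated GATC, the site cut by DpnI, and the 20 bins of the 8 genes held 209 to 333 DpnI fragments each, around a median of 264, beside 242 over all bins. RefSeq promoter windows of 300 bases (250 before to 50 after a start, GRCh38.p14) were matched by symbol for 6 of the 8 genes, 14 windows in all, and 10 of the 14 hold a GATC, as do 41.7% of all 35116 windows. Both strands were searched at once, since GATC is its own reverse complement. All 11 of these sites coincide with the end of a fragment in the deposited table. The 2 windows at the 5′ end of SYNE1 and the window of SYNE2 nearest its 5′ end are printed 5′ to 3′ on the gene's strand, because these 2 genes carry the contrast in lamina contact; GATC is in capitals.
SYNE1 upstream window, chr6:152637313-152637612, minus strand: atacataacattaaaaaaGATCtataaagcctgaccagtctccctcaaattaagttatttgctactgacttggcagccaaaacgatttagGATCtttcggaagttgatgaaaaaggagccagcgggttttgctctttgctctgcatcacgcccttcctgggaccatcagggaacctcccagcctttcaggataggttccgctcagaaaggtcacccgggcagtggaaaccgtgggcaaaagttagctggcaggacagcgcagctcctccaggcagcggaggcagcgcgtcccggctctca
SYNE1 second window, chr6:152636841-152637140, minus strand: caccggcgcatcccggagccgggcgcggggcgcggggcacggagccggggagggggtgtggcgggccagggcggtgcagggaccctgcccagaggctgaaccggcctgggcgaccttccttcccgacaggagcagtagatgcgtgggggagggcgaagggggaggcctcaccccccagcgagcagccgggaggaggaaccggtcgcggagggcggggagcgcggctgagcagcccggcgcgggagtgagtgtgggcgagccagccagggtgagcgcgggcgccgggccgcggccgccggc
SYNE2 window, chr14:63852754-63853053, plus strand: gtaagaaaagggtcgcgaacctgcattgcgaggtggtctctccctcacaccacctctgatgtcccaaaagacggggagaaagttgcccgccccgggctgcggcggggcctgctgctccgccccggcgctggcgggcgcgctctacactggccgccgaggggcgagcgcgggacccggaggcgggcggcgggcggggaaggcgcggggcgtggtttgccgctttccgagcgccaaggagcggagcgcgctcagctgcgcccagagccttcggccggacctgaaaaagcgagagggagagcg
The first SYNE1 window has 2 GATC sites and a G+C content of 51.7%. The second has 79.0% G+C and no GATC, and the SYNE2 window has 71.7% G+C and none. In these G+C-rich windows the enzyme has no site, and the whole window lies inside 1 DpnI fragment, of 749 bp for SYNE1 and 431 bp for SYNE2. Fragments that touch the 3 windows held 0 to 6 counts per library in the comparison of variants, so these windows add little to the gene spans there. The 100 kb bins below are not gene bodies, since they also hold flanking sequence and other genes. TOR1A spans 11.2 kb and SUN2 21.3 kb of their single bins.

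SYNE1 was the 1 gene of the 8 with bins called higher with the lamin fusion in bulk DamID. SYNE1 (chr6:152121687-152637362, minus strand) spans 6 bins, and all 6 were called higher with DamV133A-LMNB1 over DamV133A. In its highest bin, the second from the 5′ end (chr6:152500001-152600000), the coverage was 66.5 and 58.8 CPM with DamV133A and 132.8 and 153.1 CPM with the fusion. In its lowest, the fourth (chr6:152300001-152400000), it was 53.8 and 55.5 against 90.9 and 80.9 CPM. The fusion libraries were above both others in each of the 6 bins. From the 5′ to the 3′ end the log2 fold changes were 1.03, 1.19, 1.03, 0.65, 0.76 and 0.76 (SE 0.14 to 0.18), with edgeR adjusted p values from 2.94e-07 to 0.000894. Such a bin is a lamina-associated (LAD) bin here, and one called lower is an inter-LAD (iLAD) bin. All over the table, 35.2% of 27944 tested bins were called higher and 36.2% lower. The 6 SYNE1 bins stood at the 67.7th to 82.9th percentile of all tested bins, and they lie within an unbroken run of LAD bins of 2.8 Mb from 151600001 to 154400000 of chromosome 6. ESR1, the oestrogen receptor gene, shares its last bin and MYCT1 its first.

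SYNE2 (chr14:63761596-64226449, plus strand) is nearly as long, with 6 bins, and none was called higher. In its first bin (chr14:63700001-63800000, shared with SGPP1) the coverage was 58.0 and 49.5 CPM with DamV133A and 33.8 and 33.2 with the fusion, a log2 fold change of -0.68 (SE 0.19, edgeR adjusted p 0.00321). In its last (chr14:64200001-64300000, shared with ESR2) it was 37.5 and 46.0 against 19.0 and 22.5, a log2 fold change of -1.01 (SE 0.22, adjusted p 0.000411). Both end bins were iLAD. The 4 bins between them had log2 fold changes of -0.38, -0.34, -0.22 and -0.45 with adjusted p values from 0.0643 to 0.361, and were called neither way. The nearest LAD bin was 0.7 Mb from the first bin of SYNE2, on its upstream side.

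**Figure D3:**
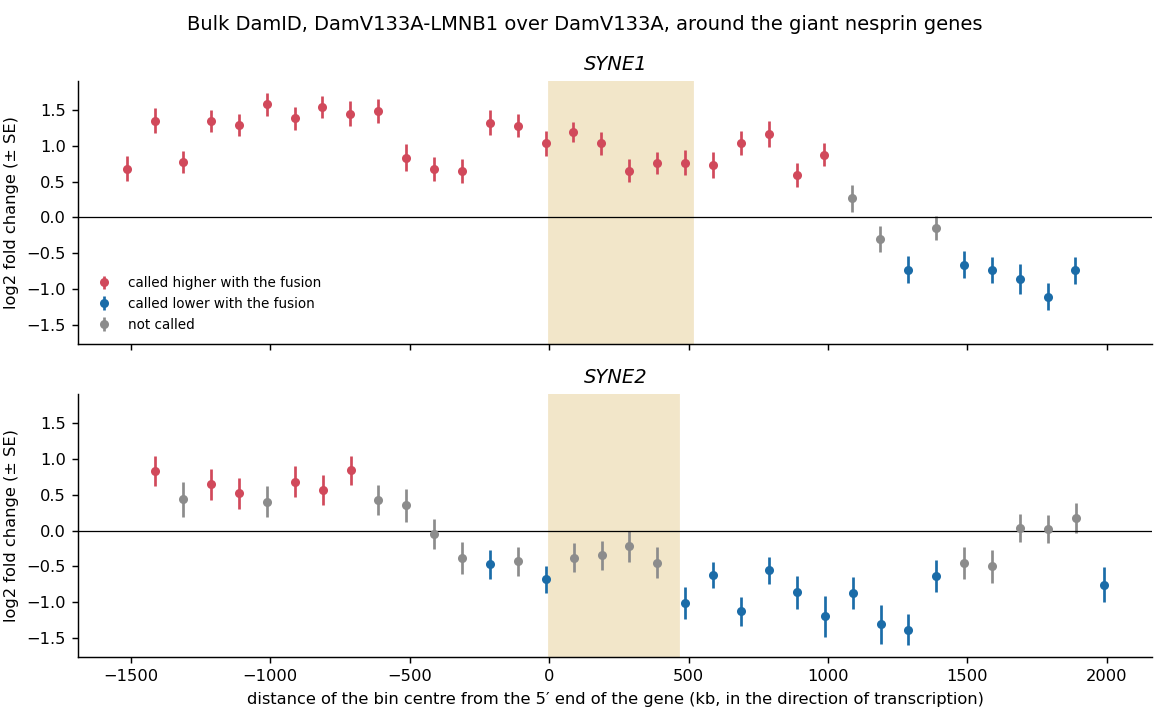
Bulk log2 fold change of DamV133A-LMNB1 over DamV133A (± SE) in 100 kb bins, against the distance of the bin centre from the 5′ end of SYNE1 (top) and SYNE2 (bottom) in kb, with the gene shaded. SYNE1 sits inside a run of bins called higher (red), with log2 fold changes of 0.65 to 1.19 in the gene, and SYNE2 between bins called lower (blue) and not called (grey).

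The remaining 6 genes lay in iLAD bins or in bins called neither way. NEMP1 (chr12:57055643-57088627) had the lowest value, in a bin that also holds MYO1A, NAB2, STAT6, TAC3 and ZBTB39: 47.7 and 36.9 CPM with DamV133A against 15.7 and 20.7 with the fusion, a log2 fold change of -1.22 (SE 0.23, edgeR adjusted p 0.000107). It is the 1 bin of the 20 that the authors' deposited table marks as a control iLAD bin, and none of the 20 is marked as a control LAD bin. SUN2 (chr22:38734734-38755998) followed at -1.01 (SE 0.26, 0.00164), with 25.9 and 35.1 CPM against 13.1 and 17.2. SUN1 (chr7:815557-874934) was at -0.95 (SE 0.26, 0.00249) and TOR1A (chr9:129812942-129824136) at -0.93 (SE 0.24, 0.00142). The SUN2 bin holds DNAL4, GTPBP1 and JOSD1, the SUN1 bin ADAP1 and GET4, and the TOR1A bin C9orf78, FNBP1, USP20 and the paralog TOR1B. TOR1AIP1 (chr1:179882285-179920076) crosses 2 bins. The first, which holds its paralog TOR1AIP2 and FAM163A, was iLAD at -0.78 (SE 0.19, 0.000921), and the second, with CEP350, was called neither way at -0.29 (SE 0.18, 0.152). SYNE3 (chr14:95407266-95516650) also crosses 2 bins, at -0.48 (SE 0.28, 0.125) at its 5′ end, with GLRX5, and -0.61 (SE 0.27, 0.0462) at its 3′ end, which with DESeq2 size factors did not pass (adjusted p 0.0663).

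In all, 6 of the 20 bins were LAD, 8 iLAD and 6 neither. Since 6 bins belong to SYNE1 and 6 to SYNE2, the 20 bins are not 20 independent regions. The count of LAD bins was 6 without any 1 of the 4 libraries. The count of iLAD bins was 4 without the second DamV133A library, 6 without the first and 11 without the second fusion library. Scaled by library totals, 14 bins were called lower. The share of all bins called in these refits is not given, so their counts are not read as a result about the 20 bins. Neighbours in the order of values, such as SUN2 with SYNE2's last bin or SUN1 with TOR1A, differed by less than their standard errors. In the authors' deposited table the log2 fold changes were 0.70 to 1.24 over the SYNE1 bins and -1.17 for NEMP1, each a little above the values fitted here.

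**Figure D4:**
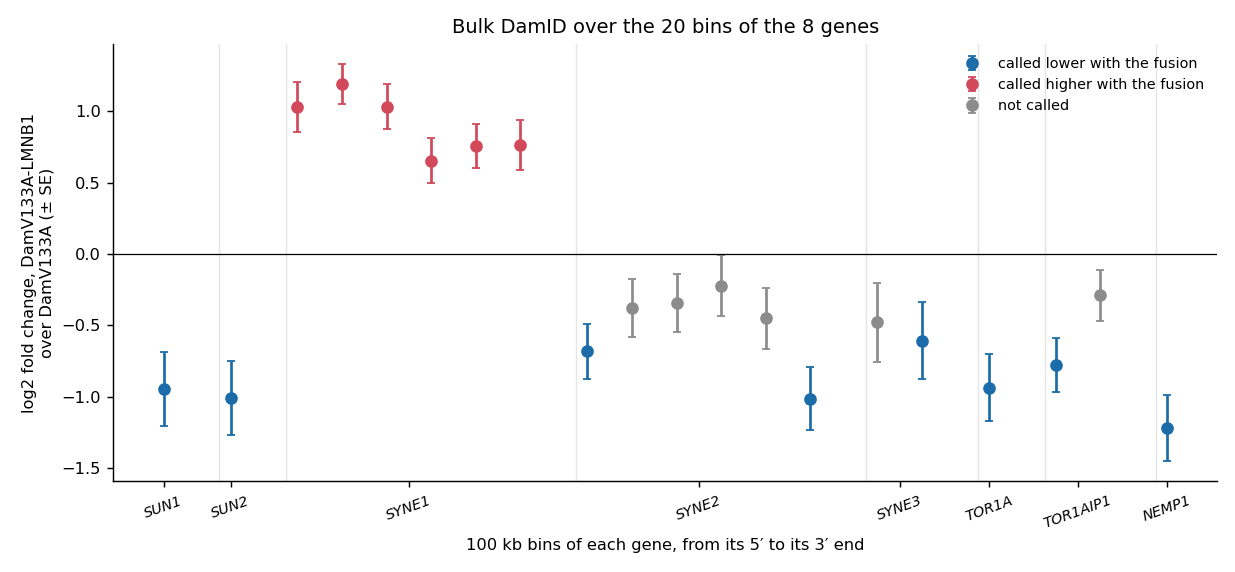
Bulk DamID log2 fold change of DamV133A-LMNB1 over DamV133A (± SE, 2 libraries a group) in the 20 bins of the 8 genes, ordered from 5′ to 3′ within a gene. The 6 SYNE1 bins are called higher (red, 0.65 to 1.19), and the bins of the other 7 genes lie below 0, called lower (blue) or not called (grey).

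The comparison of enzyme variants gave a second set of libraries for the same regions, at lower depth. Its DamWT, DamWT-LMNB1, DamV133A and DamV133A-LMNB1 libraries held 3162041 to 10666805 counts, and the SYNE1 span held 792 to 4427 of them per library. In CPM of counts in gene spans, SYNE1 was at 523.5 and 475.4 with DamWT, 1051 and 881.8 with DamWT-LMNB1, 495.0 and 457.8 with DamV133A, and 1829 and 1606 with DamV133A-LMNB1. Both fusions were above both enzymes alone, and the V133A fusion above the wild-type fusion, with no overlap. SYNE1 rose by 1.85 on the log2 scale (SE 0.14) with the V133A fusion, at an edgeR adjusted p of 5.74e-07, and by 0.95 (SE 0.14) with the wild-type fusion, at 0.00112. The median log2 fold change of all 15457 tested gene spans was -0.54 and -0.04 in these contrasts, while it was -0.10 and -0.015 over 100 kb bins. Scaled with the factors of the 100 kb bins instead, SYNE1 was at 1.03 (adjusted p 0.000146) and 0.62 (0.0366). The other 7 genes were not called by edgeR in either contrast, with TOR1AIP1 and TOR1A in the first and SUN2 in the second at an unadjusted p under 0.05. At that level, 4963 and 1768 of all 15457 gene spans passed in these contrasts. DESeq2 called 1 of the 7, TOR1AIP1, with the V133A fusion, where its span was higher. The TOR1AIP1 span was at 15.6 and 16.7 CPM with DamV133A and 48.3 and 44.4 with DamV133A-LMNB1. By edgeR its log2 fold change was 1.52 (SE 0.69), and 0.70 (SE 0.70) with the factors of the bins. The first 100 kb bin of TOR1AIP1 went the other way in these libraries, as given below. The SYNE1 span holds 1300 DpnI fragments, of which 134 to 268 had a count in a library. Over all gene spans, 10.4% were called higher with the V133A fusion and 3.6% with the wild-type fusion.

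The difference between the variants at SYNE1 depended on that scaling. The interaction, the effect of the fusion with V133A minus that with the wild type, was 0.90 on the log2 scale (SE 0.20, edgeR adjusted p 0.0263), where 2.25% of all gene spans were called higher. With the factors of the bins it was 0.41 (adjusted p 0.273), and with library totals 0.45 (0.191). It also did not pass without DamV133A replicate 2, DamWT-LMNB1 replicate 2, DamWT replicate 1 or DamWT replicate 2, with adjusted p values of 0.0809, 0.0642, 0.161 and 0.0706. In 100 kb bins the same interaction was called in 0 of the 20 bins by edgeR and in 2 by DESeq2, where 0.494% of all bins were called by edgeR. An edgeR unadjusted p under 0.05 was found in 2 of the 20 and in 6199 of all 28733 bins.

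SYNE2 did not follow SYNE1 in these libraries. Its span was at 276.5 and 312.2 CPM with DamWT, 324.2 and 292.0 with DamWT-LMNB1, 282.9 and 234.5 with DamV133A, and 236.3 and 365.1 with DamV133A-LMNB1. The 4 groups overlapped. The log2 fold changes were 0.22 (SE 0.23) with the V133A fusion and 0.07 (SE 0.23) with the wild-type fusion, at edgeR adjusted p values of 0.541 and 0.964. With the factors of the 100 kb bins they were -0.60 and -0.26 (edgeR adjusted p 0.0635 and 0.722), so the sign depended on the scaling. The 100 kb bins of SYNE2 had log2 fold changes of -0.84 to -0.20 with the V133A fusion, and none was called. The short genes held few counts: the TOR1A span had 0 to 28 per library, SUN2 1 to 61, NEMP1 4 to 106 and SUN1 5 to 80, with standard errors of 1.02 to 2.99 on the log2 scale. At this depth, differences of the size seen in bulk were not detectable for them. TOR1A was at 0 counts in both V133A fusion libraries, against 1 and 26 with DamV133A.

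In 100 kb bins of the variant libraries, the SYNE1 bins again stood above those of the other genes with the V133A fusion. Over V133A alone, 5 of the 6 SYNE1 bins were called higher, with log2 fold changes of 0.77 to 1.52, and the sixth, at the 5′ end, was at 0.70 (SE 0.30, edgeR adjusted p 0.0607). Called lower were the bins of SUN1 (-2.12, SE 0.72), SUN2 (-1.71, SE 0.57), TOR1A (-4.12, SE 1.02) and NEMP1 (-1.81, SE 0.54), the first of TOR1AIP1 (-1.29, SE 0.41) and the 5′ bin of SYNE3 (-4.45, SE 0.70). In the last, the counts were 159 and 193 with DamV133A, 10 and 8 with DamV133A-LMNB1, 109 and 87 with DamWT, and 117 and 41 with DamWT-LMNB1. The V133A fusion libraries were thus the lowest there by a wide gap. Over the whole table, 27.0% of bins were called higher and 23.7% lower in this contrast. With the wild-type enzyme 0 of the 20 bins were called by edgeR and 2 by DESeq2, where edgeR called 2.63% of all bins in either direction. An edgeR unadjusted p under 0.05 was found in 5 of the 20 and in 5970 of all 28733 bins in this contrast. The SYNE1 bins had log2 fold changes of -0.12 to 0.92 there. The 11 bins called with V133A were 5 without either DamV133A library. Counting covered fragments in place of counts, the SUN1 bin was at -0.15 (adjusted p 0.768).

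Single cells held 9526 to 348792 fragments each, with medians of 94331 in the first batch and 110234 in the second for cells with the fusion. For each gene, the fragments of a cell were set over the number expected if the cell followed the summed bulk DamV133A libraries. A ratio of 1 is thus the bulk DamV133A level. Cells with DamV133A alone did not lie at 1 at every gene, with 0.37 at SYNE1 and 1.45 at SYNE2. A ratio of 1 is therefore not a measured level of no enrichment in single cells. Cells are not replicates of a condition, so no test is made. The Poisson intervals of the ratios pool the cells and cover counting error only, not the spread between cells. The Clopper-Pearson intervals of the shares treat cells as independent draws. Neither kind covers variation between cultures. Over the 15 fusion cells of the first batch, SYNE1 held 838 fragments against 606.0 expected, a ratio of 1.38 (95% exact Poisson interval 1.29 to 1.48), and over the 36 of the second 1710 against 1568, a ratio of 1.09 (1.04 to 1.14). In the 3 cells with DamV133A alone the ratio was 0.37 (0.27 to 0.48). Per cell, SYNE1 ran from 0.04 to 3.46 around a median of 1.36 in the first batch and from 0.17 to 2.06 around 1.05 in the second, so that some fusion cells had little signal there. In the Dam-only cells it ran from 0.31 to 0.57. SYNE1 was at or above the expected number in 11 of 15 cells (73.3%, Clopper-Pearson interval 44.9 to 92.2%) and 23 of 36 cells (63.9%, 46.2 to 79.2%), and in 0 of 3 Dam-only cells.

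SYNE2 was below the expected number in most of the same cells. Its ratio was 0.38 (0.32 to 0.43) in the first batch, 0.69 (0.65 to 0.74) in the second and 1.45 (1.24 to 1.69) in the Dam-only cells. It reached the expected number in 0 of 15 cells (interval 0.0 to 21.8%), 8 of 36 cells (22.2%, 10.1 to 39.2%) and all 3 Dam-only cells. SYNE1 exceeded SYNE2 in 12 of 15 and 26 of 36 fusion cells and in 0 of the 3 others. In the second batch, 19 cells had SYNE1 alone at the expected number, 4 had SYNE2 alone, 4 had both and 9 neither. The fourth SYNE2 bin, singled out after its values were seen, was in the second batch at a ratio of 1.28 (1.12 to 1.45) and 18 of 36 cells, against 0.43 (0.29 to 0.61) and 2 of 15 in the first. The batches differ in construct, tracer and library kit, which cannot be told apart here.

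The other genes were below the expected number in the pooled fusion cells of both batches. The ratios were 0.13 and 0.21 for SUN1, 0.57 and 0.28 for SUN2, 0.28 and 0.30 for SYNE3, 0.27 and 0.26 for TOR1A, 0.35 and 0.37 for TOR1AIP1, and 0.52 and 0.22 for NEMP1, first batch before second. In Dam-only cells they were 2.20 for SUN1, 1.97 for SYNE3, 1.76 for TOR1AIP1, 1.09 for SUN2, 0.87 for TOR1A and 0.69 for NEMP1. The last 3 have intervals that include 1. With single bins, a typical cell was expected to hold about 3 to 5 fragments of SUN1, SUN2, TOR1A or NEMP1, and 7 to 11 of the 15 fusion cells and 13 to 21 of the 36 had none for such a gene. A few cells lay far above the rest: SUN2 reached 3.87 in a cell of the first batch and 3.04 in one of the second, where the medians were 0.00 and 0.23. Over all tested bins, LAD bins were at or above the expected number in 59.8% and 62.3% of fusion cells on average and iLAD bins in 14.3% and 17.2%, beside 20.0 to 60.0% and 25.0 to 58.3% over the 6 SYNE1 bins. In Dam-only cells the shares were 28.1% for LAD bins and 48.5% for iLAD bins. Thinned to 10000 fragments a cell, SYNE1 was at 1.09 and 1.16 and SYNE2 at 0.25 and 0.59 in the 2 batches.

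**Figure D5:**
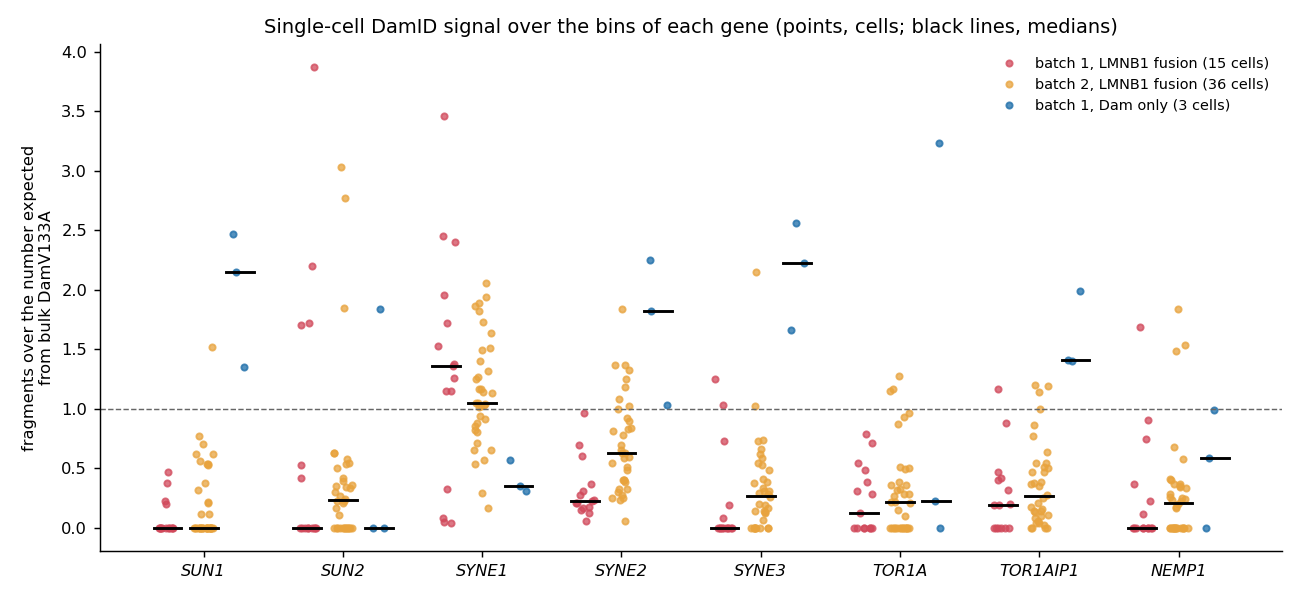
Fragments over the number expected from bulk DamV133A (vertical axis) in the bins of each gene, 1 point per cell, for fusion cells of batch 1 (15) and batch 2 (36) and Dam-only cells (3), with black lines for medians and a dashed line at 1. SYNE1 is the gene whose fusion cells centre above the line (medians 1.36 and 1.05) while its Dam-only cells lie below it.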

How the data were processed

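The estimated counts per gene of 8 RNA libraries, the counts per DpnI fragment of 8 variant libraries, and the coverage counts (bulk) and unique fragment counts (single cells) per 100 kb bin were deposited by the authors. The log2 fold changes and marks of control bins in the same table are the authors' deposited values. Per the submitters' processing notes, Salmon, limma, DESeq2, bedtools 2.28, BWA 0.7.15-r1140, SAMtools 1.9 and Trimmomatic 0.39 were used with builds hg38 and GRCh38; which tool made which file, and the unit of the bulk coverage, are not given in the sources used here. Bulk coverage totals were 402171358 to 524019579 per library.

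Estimated counts were rounded, and fragment counts were summed over 100 kb bins and RefSeq gene spans. Genes, bins and spans were filtered with filterByExpr, scaled by TMM and tested with edgeR 4.0.16 (quasi-likelihood, Benjamini-Hochberg adjustment over all features tested, threshold 0.05) in 1 fit per data type, in R 4.3.3. The code was tested on simulated counts. All 74 samples were assigned to 13 groups from their labels. Alternatives were DESeq2 1.42.0, other scalings and filters, only the groups compared, a replicate block and each library left out. Single cells were summarised with exact intervals at 95% in Python 3.11.15 with SciPy 1.17.1. The Poisson intervals cover counting error only, and the Clopper-Pearson intervals treat cells as independent draws. Text names all 8 genes, up to 4 called genes a list and contrast by smallest adjusted p, the 2 protein-coding genes most correlated with each called gene, and genes that share a bin. The genes, lists and tests were chosen with earlier results of these data known, and the list of very long mRNAs was chosen after seeing the RNA values. Proteins and genome sequence were not used here.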

Additional observations from a re-analysis of the deposited data

Results flagged for a closer look

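The effect of the lamin fusion on the SYNE1 span differed between the enzyme variants by the test of the difference itself. SYNE1 rose by 1.85 on the log2 scale with the V133A fusion and by 0.95 with the wild-type fusion, a difference of 0.90 (SE 0.20, edgeR adjusted p 0.0263, 2 libraries a group). It did not pass with library totals (0.45, adjusted p 0.191), nor without DamV133A replicate 2 (adjusted p 0.0809), DamWT-LMNB1 replicate 2 (0.0642), DamWT replicate 1 (0.161) or DamWT replicate 2 (0.0706). With the scaling factors of the 100 kb bins, an alternative chosen after seeing the data, the difference was 0.41 (SE 0.19, adjusted p 0.273) and did not pass either. Over all alternatives other than leaving out a library it ran from 0.41 to 1.13.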

How the results depend on the processing

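Of the RNA results on single genes, 197 of 252 alternative values without a library left out kept their side of the threshold and 55 lost the call. No direction reversed in these called genes, in the called bins or in the SYNE1 span. Results that were not called were not followed in this way. With bin factors, the V133A spans of SYNE2 and SUN2 went from 0.216 and 0.165 to -0.597 and -0.655. For the counts called under the alternatives below, the share of all genes, bins or spans called is not given. These counts are therefore not read as a result about the 8 genes. In DamV133A-LMNB1 over DamV133A (1 gene called), DESeq2, library totals and no filter gave 3 each, and the 2 groups alone and the replicate block 0 each. Over untreated cells (4), the 2 groups alone gave 0. In DamV133A over untreated cells (3), the 2 groups alone gave 6, DESeq2 2 and the block 0. In m6A-Tracer over untreated cells (1), DESeq2 gave 0, library totals 2, the 2 groups alone 5 and the block 0. In DamV133A-LMNB1 over m6A-Tracer (0), DESeq2 gave 1 and no filter 3. With libraries left out, these contrasts ranged from 0 to 6, 0 to 7, 0 to 6, 0 to 5 and 0 to 5, and DamV133A over m6A-Tracer stayed at 0. In bulk DamID, 14 bins were called lower with library totals; the midpoint bin of each gene alone, which leaves fewer bins, gave 1 higher and 5 lower, and leaving out a library gave 6 to 6 higher and 4 to 11 lower. In variant libraries, leaving out a library gave 5 to 12 bins for V133A, 0 to 1 for the wild type, 0 to 3 for the interaction, and 1 to 1, 1 to 1 and 0 to 1 gene spans. DESeq2 gave 2 bins for the wild type, 2 for the interaction and 2 spans for V133A, and the span interaction was called in 0 with library totals (SYNE1 0.45) or, chosen after seeing the data, bin factors (0.41). The mean share of cells at the expected number over the 20 bins was 20.3% in the first batch, 25.0% in the second and 43.3% in Dam-only cells. At 2 times the expected number it was 8.0, 7.92 and 30.0%, thinned 15.7% in the first batch and 30.0% in Dam-only cells, and in midpoint bins 11.7 and 14.9%. The cause of these changes was not tested. Same-numbered libraries had correlated deviations of -0.05 to 0.03, so the numbers are not taken as pairs; SYNE2 had an adjusted p of 0.0543 over DamV133A and 0.0535 over untreated cells under the block, which left 3 genes called over untreated cells. Low counts limit the short genes in variant libraries and single cells.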
